A study of Mus musculus with 4 samples.

Results

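N6-methyladenosine (m6A) is the most abundant internal modification of mRNA, and its machinery is described here through 10 genes chosen by symbol, of 53465 in the deposited table. The writers are *Mettl3*, *Mettl14* and *Wtap*, the erasers are *Alkbh5* and *Fto*, and the readers are *Ythdf1*, *Ythdf2*, *Ythdf3*, *Ythdc1* and *Ythdc2*. The rule is the symbol alone and takes no measured value, although the set was chosen when earlier results of these data were known. All 10 members were found and were expressed above the minimum set for testing (0.1 FPKM, averaged over the 4 libraries).

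METTL3 and METTL14 form the core methyltransferase that deposits m6A on nascent RNA, with WTAP as the adaptor that brings it to nuclear speckles. ALKBH5 and FTO are dioxygenases that remove the methyl group, and proteins with a YTH domain bind the mark: the YTHDF proteins in the cytoplasm, where they act on mRNA decay and translation, and YTHDC1 in the nucleus, where it acts on splicing and export. YTHDC2 is an RNA helicase that germ cells need to enter and complete meiosis, and several other members of this machinery are required for oocyte or spermatogonial development in mice.

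Long RNA-seq was done on mouse female germline stem cells (FGSCs), which are cultured cells labelled as ovarian germ stem cells, in 2 libraries per group. The shNC group carried a control short hairpin RNA (shRNA), and the shNAT10 group carried an shRNA against *Nat10*, whose product writes N4-acetylcytidine (ac4C), a different mark on RNA. According to the study's methods, hairpins were delivered by lentivirus and infected cells were selected with an antibiotic, and the replicates are called biological. No genotype, age or strain that differs between the groups is given, and no sequencing batch. The comparison asked here is whether mRNA of the m6A machinery differed when *Nat10* was knocked down.

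Because the contrast rests on the hairpins, their 21-base target sequences are shown as the study lists them, with the sequence of the control hairpin. Capitals mark the longest run of bases that also occurs in the transcript of any of the 10 members, the only transcripts searched. Which of the 3 *Nat10* hairpins was used for these libraries is not given in the sources used here.
Nat10 target 1: TTGCTGTTcacccagattatc
Nat10 target 2: AGAGTGGGAccttgaacttaa
Nat10 target 3: gcagtggaGAAGTGGCTTaat
control target: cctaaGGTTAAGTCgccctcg

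All 3 *Nat10* targets matched the coding sequence of *Nat10* (GRCm38, minus strand), at chr2:103731978-103731998 in exon 18, chr2:103754169-103754189 in exon 4 and chr2:103734449-103734469 in exon 14. The longest runs shared with a member's transcript were 8, 9 and 10 bases for the *Nat10* targets in the order shown and 9 bases for the control. The ungapped site closest to a whole target had 6 mismatches, in *Mettl14* for the first target and in *Fto* for the third. For the second target it had 7 mismatches, in *Alkbh5*.

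The target of the knockdown was lower in both shNAT10 libraries. FPKM (a fragment count scaled to exon length and a factor of each library) of *Nat10* was 7.79 and 5.42 in shNC and 2.95 and 3.04 in shNAT10, so the groups did not overlap. The difference on the log2(FPKM + 0.1) scale was -1.09 (SE 0.21, 95% interval -1.63 to -0.55), with an adjusted p of 0.123 by limma with Benjamini-Hochberg adjustment over 20116 genes. Its unadjusted p in the same limma fit was 0.00411, and the exact permutation test of 2 against 2 libraries cannot go below 0.333. A gene is called changed below where its fold change was over 1.2 and its unadjusted limma p at most 0.05, the threshold that the study used. Without shNAT10 replicate 1 the difference in *Nat10* was -1.07 and no longer called, and the same held without shNAT10 replicate 2, at -1.11. Such fits hold 1 library in a group and take their spread from the other group.

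Depth and cell identity bear on what follows. Recovered fragments numbered 11057922 to 14902437 per library, of which rRNA-related loci took 46.8% and 36.2% in shNC and 24.2% and 26.2% in shNAT10. The list of these loci includes *Lars2*, *Gm26917* and *Gm42418*. The study treats the last 2 as lncRNAs and reports both lower in shNAT10 by RT-qPCR, so the share is not of rRNA alone. Of 9 germline markers, *Pou5f1*, *Dppa3* and *Dazl* were at 0 in every library, *Ddx4* had an FPKM of 0.0529 in 1 library and 0 in the other 3, and only *Ifitm3*, which many cell types express, exceeded a mean of 1. The summed FPKM of the germline list was 10.03 to 22.8 in shNC and 27.95 to 34.5 in shNAT10, nearly all of it *Ifitm3*. In contrast, 5 pan-leukocyte markers, none of them at 0, summed to 443 to 493 in shNC and 363 to 384 in shNAT10. The sum of 5 mast cell markers, of which *Fcer1a* was at 0, was 271 to 284 and 286 to 290. The 5 fibroblast markers, with *Lum* at 0, summed to 44.2 to 51.0 and 49.9 to 59.5. The 4 oocyte markers (*Zp3*, *Bmp15* and *Figla* at 0) summed to 0.168 to 0.207 and 0.0642 to 0.0785, and the 5 granulosa cell markers (*Fshr* and *Foxl2* at 0) to 0.114 to 0.204 and 0.203 to 0.485. Defining germline markers were thus absent or near 0 in libraries labelled as germ stem cells. Among the 33 markers listed, 18 were tested: *Pdgfra* and *Ms4a2* were called higher by 0.83 and 2.12 (log2), and *Laptm5*, *Lcp1*, *Cd53* and *Kit* lower, at -0.64, -0.37, -0.58 and -0.60, and each of these 6 calls was lost without shNAT10 replicate 1. That of *Pdgfra* was also lost without shNAT10 replicate 2, and that of *Lcp1* in limma without the mean-variance trend. The *Laptm5* call was further lost without shNC replicate 1 (-0.34) or shNAT10 replicate 2 (-0.76), without the minimum level, without the trend and when FPKM was rescaled to the protein-coding total or the total without rRNA-related loci. A limma-voom fit on fragments recovered from the FPKM gave 7 of the 18 an adjusted p under 0.05, beside 1582 of the 20077 genes in that fit. The rRNA share and the leukocyte and mast cell markers moved with the groups, and their part in the differences below was not tested.

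None of the 10 chosen writers, erasers and readers was called changed in the shNAT10 libraries. At the threshold, 0 of the 10 members were called higher and 0 lower, where 16.2% of all 20116 genes tested were called (8.41% higher and 7.83% lower). By limma, 0 members had an unadjusted p under 0.05 and 0 an adjusted p under 0.05, which 0.437% of all genes had. The limma-voom fit on recovered fragments gave an unadjusted p under 0.05 to 1 member, *Alkbh5*, and an adjusted p under 0.05 to 0. Of the 20077 genes in that fit, 4023 had an unadjusted p under 0.05 and 1582 an adjusted p under 0.05. The median difference of the members was 0.011 on the log2 scale, beside 0.0054 over all genes tested, and their differences lay between -0.26 and 0.31. That median changed sign without shNC replicate 1 (-0.034), shNC replicate 2 (-0.056) or shNAT10 replicate 1 (-0.042), and was 0.0019 without shNAT10 replicate 2. The median size of the difference was 0.17, beside 0.30 over all genes tested and 0.20 over the 9714 protein-coding genes that averaged 1 FPKM or more. Every one of the 10 intervals held 0 and none reached the estimate for *Nat10*, although those of *Fto* and *Mettl14* overlapped the interval of *Nat10*. The intervals of the 10 members together ran from 0.590-fold to 1.66-fold.

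**Figure D1:**
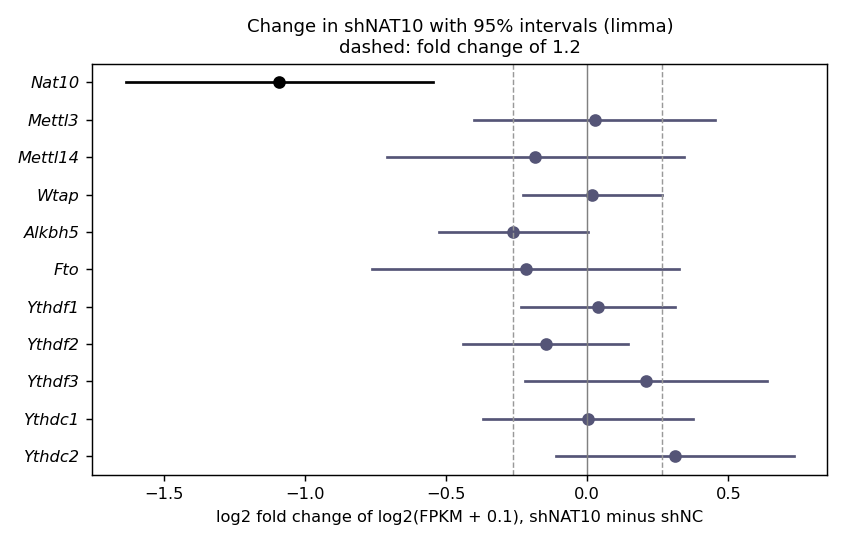
Differences of *Nat10* and the 10 m6A genes between shNAT10 and shNC on the log2(FPKM + 0.1) scale (horizontal axis), with points for the estimates and lines for 95% intervals from limma, n = 2 libraries per group; dashed lines mark a fold change of 1.2. The interval of *Nat10*, from -1.63 to -0.55, lies apart from 0, while each of the 10 members' intervals holds 0.

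Among the writers, *Mettl3*, the catalytic subunit, did not separate the groups (chromosome 14, 52294841 to 52305128, minus strand of GRCm38). Its FPKM was 4.08 and 3.35 in shNC and 3.55 and 3.996 in shNAT10, and these values interleaved. The difference was 0.03 (SE 0.16, interval -0.40 to 0.45, limma adjusted p 0.955). An opposite-strand neighbour, *Tox4*, shares 933 bases of exon with *Mettl3*, or 18.4% of its exon length, and the sources used here do not say whether strand was used in counting, so reads there cannot be assigned to one gene.

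*Mettl14*, the subunit that binds RNA and supports catalysis, was the member with the lowest level (chromosome 3, 123368297 to 123386108, minus strand). Its FPKM was 1.47 and 1.37 in shNC and 1.34 and 1.14 in shNAT10. The shNAT10 values were the lower ones, by a gap smaller than the difference between the shNAT10 libraries. The difference was -0.18 (SE 0.20, interval -0.71 to 0.34, limma adjusted p 0.681), and it ranged from -0.29 without shNAT10 replicate 1 to -0.076 without shNAT10 replicate 2.

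*Wtap* was the most even of the members across libraries (chromosome 17, 12966796 to 12994169, minus strand). Its FPKM was 12.4 and 12.4 in shNC and 13.0 and 12.1 in shNAT10, with the shNC values between those of shNAT10. The difference was 0.02 (SE 0.09, interval -0.23 to 0.26, limma adjusted p 0.945), the narrowest interval of the members, together with the most fragments, 4009 over the 4 libraries.

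Of the erasers, *Alkbh5* came closest to the threshold (chromosome 11, 60536381 to 60558512, plus strand). Its FPKM was 12.3 and 13.0 in shNC and 10.1 and 10.9 in shNAT10, so every shNAT10 value was below every shNC value. The ratio was 0.834-fold and the difference -0.26 (SE 0.10, interval -0.52 to 0.0010, limma adjusted p 0.304). It missed both parts of the threshold by little, with an unadjusted limma p of 0.0506 and a ratio just short of a 1.2-fold decrease. The unadjusted p was 0.0276 without the minimum level, 0.0484 with a pseudocount of 1 and 0.0390 by limma-voom on recovered fragments (adjusted p 0.214), and in these 3 fits the fold change alone kept it from a call. Leaving out each library in turn kept it between -0.32 and -0.21 without a call, while a pseudocount of 0.01 gave a call (-0.26, unadjusted limma p 0.0488).

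*Fto*, the other demethylase, was also low (chromosome 8, 91313525 to 91668439, plus strand). Its FPKM was 1.33 and 1.62 in shNC and 1.31 and 1.196 in shNAT10. The highest shNAT10 value and the lowest shNC value nearly touched. The difference was -0.22 (SE 0.21, interval -0.76 to 0.33, limma adjusted p 0.633), the widest interval of the members. It was -0.35 without shNC replicate 1 and -0.085 without shNC replicate 2. The opposite-strand genes *Gm45427* and *4831440D22Rik* share 304 and 144 bases with its exons, or 2.33% and 1.11% of its exon length.

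**Figure D2:**
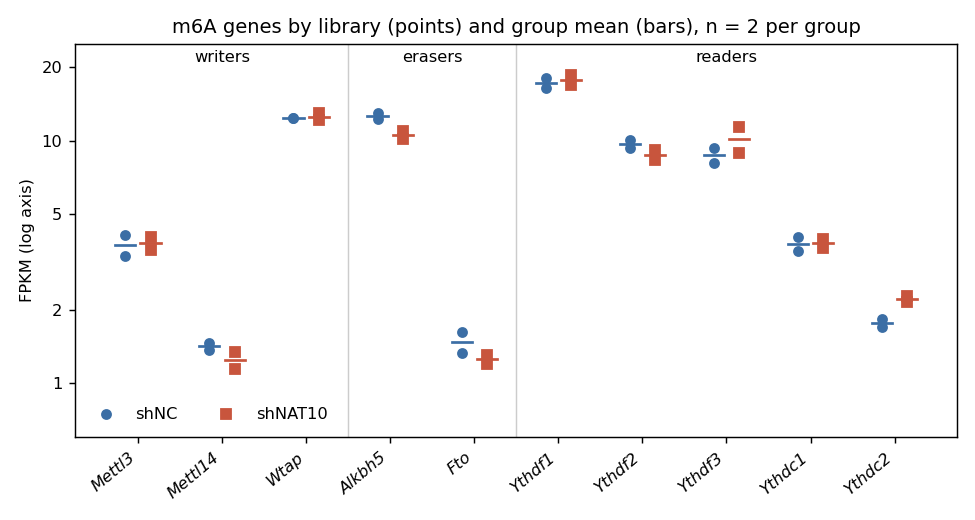
FPKM of the 10 m6A genes (vertical log axis) in each library, with circles for shNC, squares for shNAT10 and bars for the mean of 2 libraries. The shNAT10 values of *Alkbh5*, 10.1 and 10.9, lie below those of shNC, the values of *Ythdc2*, 2.28 and 2.17, lie above them, and *Ythdf1* has the highest level of the members.

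The cytoplasmic readers *Ythdf1*, *Ythdf2* and *Ythdf3* are close paralogs. *Ythdf1* (chromosome 2, 180904377 to 180920949, minus strand) had an FPKM of 18.0 and 16.5 in shNC and 18.6 and 16.9 in shNAT10. Its groups overlapped, with a difference of 0.04 (SE 0.10, interval -0.24 to 0.31, limma adjusted p 0.891). *Ythdf2*, the reader best known for promoting mRNA decay (chromosome 4, 132184912 to 132212303, minus strand), had an FPKM of 10.04 and 9.29 in shNC and 9.15 and 8.29 in shNAT10. A small gap separated the groups, with shNAT10 lower, and the difference was -0.15 (SE 0.11, interval -0.44 to 0.15, limma adjusted p 0.570). It was -0.092 without shNC replicate 1 and -0.077 without shNAT10 replicate 2. *Ythdf3* (chromosome 3, 16183212 to 16217037, plus strand) had an FPKM of 8.06 and 9.35 in shNC and 11.3 and 8.92 in shNAT10. Here 1 shNAT10 library was above the rest and the other lay within the shNC values, with a difference of 0.21 (SE 0.16, interval -0.22 to 0.64, limma adjusted p 0.578) that ranged from 0.04 to 0.38 as single libraries were left out. No gene in the deposited table had the symbol of any of the 10 members with a pseudogene suffix (ps). This search cannot find pseudogenes under other names, and the authors' treatment of reads that match several genes is not given in the sources used here.

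On FPKM, a scale per exon length, the YTHDF paralogs could be set against each other within a library. That exon length merges all transcripts of a gene, so the shares are approximate. *Ythdf1* made up 49.9% and 47.0% of their summed FPKM in shNC, and 47.6% and 49.5% of it in shNAT10. The part of *Ythdf2* was 27.8% and 26.4% with shNC, compared with 23.4% and 24.3% with shNAT10, so its share was lower in both shNAT10 libraries. For *Ythdf3* it was 22.3% and 26.6% against 29.0% and 26.1%, which overlapped. The summed YTHDF level was 36.2 and 35.1 in shNC and 39.1 and 34.1 in shNAT10. With 2 libraries per group, the shares were not tested.

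**Figure D3:**
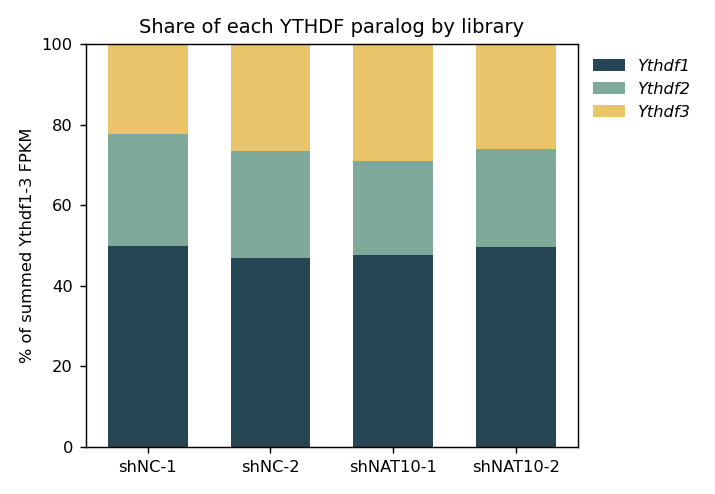
Share of the summed FPKM of *Ythdf1*, *Ythdf2* and *Ythdf3* (vertical axis, percent) taken by each paralog in each of the 4 libraries (bars). *Ythdf1* takes 47.0% to 49.9% in every library, and the *Ythdf2* segment shrinks from 27.8% and 26.4% in shNC to 23.4% and 24.3% in shNAT10.

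The nuclear reader *Ythdc1* had the smallest difference of the members (chromosome 5, 86804221 to 86836659, plus strand). Its FPKM was 3.52 and 4.005 in shNC and 3.92 and 3.61 in shNAT10, with the shNAT10 values inside the shNC range. The difference was 0.0040 (SE 0.14, interval -0.37 to 0.38, limma adjusted p 0.994), and it turned negative under quantile normalization. A lincRNA on the same strand, *Gm43055*, shares 631 bases with its exons, or 4.62% of its exon length.

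*Ythdc2*, the meiotic helicase on chromosome 18, had the largest positive difference of the members. Its FPKM was 1.84 and 1.71 in shNC and 2.28 and 2.17 in shNAT10, and all shNAT10 values were above all shNC values. The ratio was 1.24-fold and the difference 0.31 (SE 0.16, interval -0.11 to 0.73, limma adjusted p 0.426), which stayed between 0.26 and 0.36 as libraries were left out. Its unadjusted limma p was 0.115, and a call came only without the filter on low values. The partners of YTHDC2 in meiosis were hardly detected: *Meioc* had 7, 3, 0 and 8 recovered fragments in the 4 libraries, and *Rbm46* had 0 fragments in each, which allows up to 3 fragments per library for counting error alone.

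Fragments behind these values ranged from 121 (*Mettl14* in shNC replicate 2) to 1163 (*Wtap* in shNAT10 replicate 2) per library. Counting alone gives an SE of 0.05 to 0.13 for a member's log2 difference, while the SE of the fit was 0.09 to 0.21. In 5 members the groups did not overlap, *Ythdc2* higher and *Mettl14*, *Alkbh5*, *Fto* and *Ythdf2* lower in shNAT10, as compared with 48.0% of all genes tested (23.9% higher and 24.1% lower). In *Alkbh5*, *Ythdf2* and *Ythdc2*, the difference between group means was larger than the difference between libraries in either group. The share of all genes tested in which this held was not computed, so it does not mark these members out. Larger sizes of difference than that of *Ythdc2* were found in 48.7% of all genes tested, and in 31.7% of the protein-coding genes that averaged 1 FPKM or more.

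**Figure D4:**
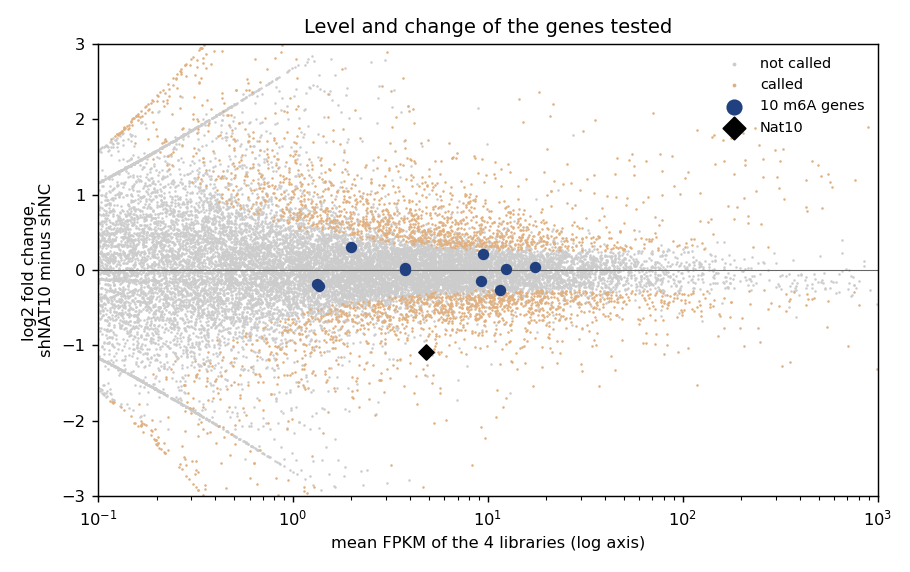
Mean FPKM over the 4 libraries (horizontal log axis) and log2 difference between shNAT10 and shNC (vertical axis) of the genes tested, with called genes in orange, the 10 m6A genes in blue and *Nat10* as a black diamond. The m6A genes lie between -0.26 and 0.31, inside the band of genes of like level, and *Nat10* is at -1.09; 178 genes lie outside the plotted range.

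By level, the members spanned a wide range, from a mean FPKM of 17.5 for *Ythdf1* to 1.33 for *Mettl14*. *Wtap* (12.5), *Alkbh5* (11.6), *Ythdf3* (9.42) and *Ythdf2* (9.19) followed *Ythdf1*, and *Ythdc1* (3.76), *Mettl3* (3.74), *Ythdc2* (2.00) and *Fto* (1.37) came after them in mean FPKM. The ranges over libraries of *Ythdf1* and *Wtap*, of *Ythdf2* and *Ythdc1*, of *Mettl3* and *Ythdc2* and of *Ythdc2* and *Fto* did not overlap, while those of each other pair of neighbours did. *Ythdf1* stood at the 89.4th percentile of the mean FPKM of the genes tested and *Mettl14* at the 45.0th. The exon length that recovered whole fragments merges all transcripts of a gene, from 3316 bases for *Ythdf1* to 13651 for *Ythdc1*. Genes with long merged exons can look low, so levels, ratios and sums that compare genes are approximate. The ratio of *Mettl3* to *Mettl14* FPKM, whose products form a heterodimer, was 2.77 and 2.44 in shNC and 2.64 and 3.497 in shNAT10. That of *Alkbh5* to *Fto* was 9.24 and 8.004 in shNC and 7.75 and 9.14 in shNAT10. Both ratios overlapped between the groups. Summed over each role, writer FPKM was 17.9 and 17.1 in shNC and 17.9 and 17.3 in shNAT10, eraser FPKM 13.6 and 14.6 against 11.4 and 12.1, and reader FPKM 41.5 and 40.9 against 45.3 and 39.9. The groups were apart in the eraser sum, most of it *Alkbh5*, and overlapped in the other two. Since these are bulk libraries, fewer cells of a type and less RNA per cell cannot be told apart in any of these levels.

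The promoters found for members shared a base composition that the choice by symbol did not use. RefSeq promoter sequences (GRCm38.p6, 250 bases before to 50 bases after the start) were found for 7 of the 10 members, not for *Mettl14*, *Ythdf3* or *Ythdc2*. CG dinucleotides, a motif that reads the same on both strands, numbered 17 (*Mettl3*) to 37 (*Ythdf1*) in these windows, with a median of 32, beside a median of 7 over 27025 promoters, of which 94.2% hold at least 1. All 7 had a GC content over 50% and a ratio of observed to expected CG over 0.6, as did 33.9% of all promoters. The 27025 promoters were not limited to genes expressed here. The share among genes of like level was not computed, so the trait cannot be called particular to the members.

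Around the members, 31 other m6A genes were listed, and 29 of them passed the filter on low values, without *Meioc* and *Rbm46*. Among the tested genes 3 were called higher and 0 lower, with a median log2 difference of 0.10 (0.0054 over all genes tested), beside 8.41% called higher and 7.83% called lower over all genes. The median was 0.056 without shNC replicate 2 and 0.15 without shNAT10 replicate 2. No writer subunit was called of 10, while 2 of 9 further readers, *Fmr1* and *Rbmx*, and 1 of 10 tested cofactors, *Mat2a*, were higher in shNAT10. None of the 29 had an adjusted p under 0.05 by limma, and 3 did by limma-voom, beside 1582 of the 20077 genes in that fit.

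*Fmr1* encodes the fragile X protein FMRP, an RNA-binding regulator of translation that has been linked to m6A. Its FPKM was 3.69 and 3.43 in shNC and 6.64 and 5.53 in shNAT10, well apart between the groups. It rose by 0.75 (SE 0.15, limma adjusted p 0.127), with a limma-voom adjusted p of 0.000469, and the call was lost without shNC replicate 2, at 0.70. *Rbmx* encodes a nuclear protein that binds RNA regions opened by m6A, and it has retrogene copies that can share its reads. Its FPKM was 4.05 and 3.62 in shNC and 4.77 and 5.35 in shNAT10. It was called higher by 0.39 (SE 0.14, limma adjusted p 0.274), but leaving out any single library ended the call, with differences of 0.31 to 0.47. So did rescaling to the protein-coding total (unadjusted limma p 0.0585) and limma without the trend (unadjusted p 0.0774). *Mat2a* encodes the enzyme that makes S-adenosylmethionine, the methyl donor, and its mRNA is itself a known m6A target. Its FPKM was 63.7 and 51.8 in shNC and 76.7 and 76.0 in shNAT10. It was called higher by 0.41 (SE 0.12, limma adjusted p 0.232), and the call was lost without shNC replicate 2 (0.26) and without shNAT10 replicate 1 (0.40) or shNAT10 replicate 2 (0.42). It was also lost without the minimum level (unadjusted limma p 0.0596) and without the trend (unadjusted limma p 0.0885).

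Of the listed m6A genes without a call, the highest-expressed of each role are given here. Of the writers, *Rbm15b*, an adaptor of the complex, had an FPKM of 13.9 and 13.5 in shNC and 12.3 and 12.2 in shNAT10, a difference of -0.16. *Trmt112*, the partner of the rRNA m6A enzyme METTL5, had 18.4 and 21.7 in shNC and 14.9 and 18.2 in shNAT10, a difference of -0.28 with the shNAT10 values just below those of shNC. The abundant readers *Hnrnpa2b1* and *Hnrnpc* differed by 0.06 and -0.12. *Ahcy*, which clears the by-product of methylation, had an FPKM of 60.2 and 59.2 in shNC and 62.5 and 59.8 in shNAT10, a difference of 0.03.

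Genes of other mRNA modifications were compared in the same way, and all 19 listed were tested. Besides *Nat10*, 2 of the 18 others were called higher, *Nsun2* and *Pus1*, and 0 lower, beside 8.41% and 7.83% of all genes tested. Their median log2 difference without *Nat10* was 0.17, beside 0.0054 over all genes tested. *Nsun2*, the main methyltransferase of 5-methylcytosine (m5C) in mRNA, had an FPKM of 48.3 and 49.6 in shNC and 64.4 and 66.1 in shNAT10, with little spread in either group. It rose by 0.41 (SE 0.08, interval 0.21 to 0.62, limma adjusted p 0.122) and was called with each library left out, at 0.39 to 0.43; its limma-voom adjusted p was 0.00397. *Pus1*, a pseudouridine synthase, had an FPKM of 11.8 and 11.4 in shNC and 13.9 and 15.1 in shNAT10. It was called higher by 0.32 (SE 0.10, limma adjusted p 0.236), and the call was lost without shNC replicate 1 (0.35), shNC replicate 2 (0.29) or shNAT10 replicate 2 (0.26), and in limma without the trend (unadjusted p 0.0924).

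*Thumpd1*, the adaptor of NAT10 on tRNA, had an FPKM of 30.3 and 32.6 in shNC and 31.5 and 32.5 in shNAT10, a difference of 0.02 that changed sign with the library left out. *Cmtr2*, a cap methyltransferase, had 5.44 and 7.70 in shNC and 3.31 and 4.82 in shNAT10, without overlap. Its difference was -0.68 with a limma adjusted p of 0.308 and a limma-voom adjusted p of 0.0203. It was not called at the unadjusted limma p of 0.0523, nor with any library left out (-0.95 to -0.42), but it was called by limma-voom, among genes averaging 1 FPKM or more (unadjusted limma p 0.0400) and with the protein-coding total (unadjusted limma p 0.0431). *Cmtr1*, the other cap ribose methyltransferase, differed by nearly as much in the opposite direction, with an FPKM of 0.842 and 0.598 in shNC and 1.21 and 1.17 in shNAT10. Its difference was 0.67 with a limma adjusted p of 0.311 and a limma-voom adjusted p of 0.0350, also without a call in the limma fit. The named genes left had differences of 0.21 (*Alyref*), -0.15 (*Ybx1*), 0.19 (*Trmt6*), 0.07 (*Trmt61a*), 0.10 (*Dkc1*), -0.02 (*Mettl1*), 0.26 (*Wdr4*), 0.20 (*Adar*), 0.05 (*Adarb1*) and -0.09 (*Rnmt*) on the log2 scale, none of them called. *Wdr4* was called higher without shNC replicate 1 (0.34) and *Trmt6* without shNAT10 replicate 1 (0.33).

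**Figure D5:**
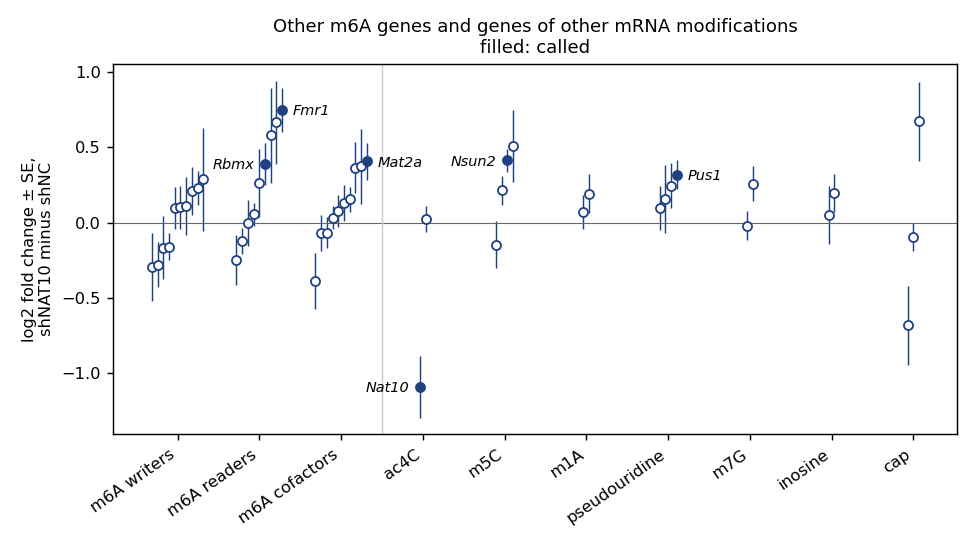
Log2 differences between shNAT10 and shNC (vertical axis) with SE from limma for the 29 other m6A genes tested, left of the grey line, and the 19 genes of other mRNA modifications, right of it, grouped by role or mark. Filled points are called genes: *Fmr1* is highest of them at 0.75, *Rbmx*, *Mat2a*, *Nsun2* and *Pus1* lie between 0.32 and 0.41, and *Nat10* is lowest at -1.09.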

How the data were processed

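The data were Long RNA-seq libraries of FGSCs, 2 with shNC and 2 with shNAT10, grouped by the sample labels. The submitters' processing notes name cutadapt, HISAT2, DESeq2 and mm10. The counting program, its strand setting and the annotation are not given in the sources used here. The methods describe rRNA depletion with the Epi Mini LongRNA-seq Kit, whereas the labels describe mRNA isolation with an Oligotex kit. The authors deposited FPKM for 53465 genes, and a further table that repeats the FPKM of 13023 genes beside a log2 fold change, p-value and adjusted p of their own comparison, which were not used. Columns of single libraries left out numbered 0. FPKM divides fragments by exon length and by a divisor of each library. These divisors did not follow the recovered totals, and median-ratio factors computed from the deposited FPKM were 1 in every library, so the values were already on a median-ratio scale.

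The 20116 genes averaging 0.1 FPKM or more were compared on log2(FPKM + 0.1), a scale that understates changes of low genes, with limma 3.58.1 (lmFit, eBayes with trend) in R 4.3.3, two-sided, with Benjamini-Hochberg adjustment over all of them. Genes with a fold change above 1.2 and an unadjusted p up to 0.05 were called. The p-values measure the spread between these libraries. Fragments were recovered as FPKM times the exon length in GENCODE M21 (GRCm38, 99.8% of genes matched), of which 96.0% to 96.5% of values below 50 lay within 0.02 of a whole number. They gave the depth, a floor of 3 fragments and a limma-voom fit. Intervals and floors from counts cover counting error only.

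The text names all members, *Nat10*, and from each list every called gene and otherwise the 2 highest-expressed genes of each role, apart from uncalled markers, which are given by list, with single markers added after their values were seen. So were *Meioc*, *Rbm46* and *Cmtr1*. The members and the lists (other m6A genes, genes of other mRNA modifications, cell type markers and 361 rRNA-related loci) were chosen with earlier results of these data known. The alternatives were other pseudocounts (1 and 0.01), no minimum or a minimum of 1 FPKM, other scalings (median-ratio, which with factors of 1 left the values as they were, the FPKM total of protein-coding genes, the total without the rRNA-related loci, quantile), a fit with no trend, a block for the replicate number, limma-voom, and leaving out each library. The fitting code was run on simulated data as a check of the code, and no result here rests on that. Python 3.11.15 with numpy 2.4.6, pandas 2.3.3, scipy 1.17.1 and matplotlib 3.10.9 served for summaries and plots.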

Additional observations from a re-analysis of the deposited data

How the results depend on the processing

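Depth limits the low members, *Mettl14*, *Fto* and *Ythdc2*, most. For the 10 members, 97 of 100 values under the alternatives other than leaving out a library, and not counting the median-ratio rescaling, which could change no value, kept direction and side of the threshold, and 33 of 40 with a library left out. The exceptions were 1 member called higher without the filter (*Ythdc2*), 1 called lower with a pseudocount of 0.01 (*Alkbh5*), and *Ythdc1*, at -0.013 under quantile normalization. With libraries left out, the sign turned for *Mettl3* (-0.11 to 0.16), *Wtap* (-0.029 to 0.065), *Ythdf1* (-0.031 to 0.10), *Ythdc1* (-0.087 to 0.10), *Thumpd1* (-0.029 to 0.077), *Ybx1* (-0.29 to 0.0030), *Trmt61a* (-0.0069 to 0.15), *Dkc1* (-0.037 to 0.23) and *Mettl1* (-0.10 to 0.058). *Mettl1* was also at 0.022 with the FPKM total without rRNA-related loci and at 0.019 under quantile normalization. A fit with a library left out holds 1 library in a group and takes its spread from the other group, so a lack of calls there does not show stability. Over all genes, limma-voom called 2019 higher and 1875 lower. With a library left out, the called numbered 1108 (without shNAT10 replicate 1) to 1734 higher and 899 (without shNAT10 replicate 1) to 1659 lower, with 1007 lower without shNAT10 replicate 2. Genes with an adjusted p under 0.05 numbered 88 as reported, 1582 by limma-voom and 0 with a pseudocount of 1 or 0.01, without the trend, under the block and with any library left out. Others were 36 without the filter, 296 at a mean FPKM of at least 1, and 140, 136 and 151 with the protein-coding total, the total without rRNA-related loci and quantile normalization. Of the other m6A genes, limma-voom called 6 higher, leaving out a library 0 to 3 higher and 0 to 1 lower. *Nat10* ranged from -1.35 to -0.83. The other named genes kept direction and side in 261 of 280 such values, and in 82 of 112 with a library left out. Same-numbered libraries did not deviate together (r = 0.00711 across 20116 genes, which are not independent), so the numbers were not taken as pairs. With the replicate number as a block, 3114 genes were called in all, 0 members, and 1 other m6A gene lower (*Trmt112*), the calls of *Rbmx* and *Laptm5* were lost, and *Cmtr2* was called lower. The cause of these differences was not tested.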
